A study of Mus musculus with 38 samples.

Results

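Lung metastases were compared with primary mammary carcinomas in the MMTV-PyMT mouse, in which the mouse mammary tumor virus promoter drives the polyoma middle T antigen, a viral oncoprotein, in mammary epithelium. The comparison used every array labelled Metastases (n = 5) and every array labelled Carcinoma (n = 6), 11 of the 38 samples in the series. In both groups, hyperplastic lesions from MMTV-PyMT;actin-GFP donors had been transplanted into the mammary fat pad of FVB/n mice, and GFP-positive cells were sorted by flow cytometry before RNA extraction. Carcinomas were outgrown primary tumors. Metastases were taken from the lungs of mice whose primary tumor had been surgically removed and which were killed at the first signs of respiratory distress. The study's methods describe chemotherapy only for other groups, although the labels repeat that protocol for every sample, and ages are not stated in the labels. The actin promoter drives GFP in all cell types of a donor graft, so the sort was meant to select cells of graft origin rather than epithelium alone. The FVB/n hosts were not described as carrying GFP, so host lung cells were not meant to be sorted. The purity of the sort was not tested here. The labels do not say which samples came from separate mice, so the p-values measure the spread between samples. That spread was pooled over 22 arrays of 4 groups, including adenomas and disseminated cells, and not only these 11. Each sample was labelled with Cy5 and hybridized against a Cy3-labelled pooled mouse reference RNA. All levels below are log2 ratios of sample to reference after normalization, so they compare samples for 1 gene and not genes with one another.

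A lung metastasis grows in a tissue rich in alveolar macrophages, the resident phagocytes that clear surfactant, and in type II alveolar cells, which secrete it. Macrophages in and around tumors release cytokines, chemokines and matrix proteases, and present antigen on MHC class II molecules. MHC class I molecules, displayed by nearly all nucleated cells and induced by interferons, present intracellular peptides to cytotoxic T cells.

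Of the 11 samples, 3 stood apart from their groups. Carcinoma replicates 1 to 5 resembled one another closely, but carcinoma replicate 6 correlated less with the other carcinomas (median r = 0.760 across genes) than with the metastases (median r = 0.830). Metastases replicate 5 was about as close to the carcinomas (median r = 0.861) as to the other metastases (0.857), whereas metastases replicate 4 was the farthest from the carcinomas (0.566). The genes are not independent replicates, and these coefficients describe the samples. The 22-gene macrophage list averaged -0.54 to 0.55 in carcinoma replicates 1 to 5 and 4.47 in carcinoma replicate 6. In the metastases it averaged 3.20, 0.54, 3.99, 4.79 and 1.02 in metastases replicates 1 to 5, so that metastases replicate 2 lay within the range of carcinoma replicates 1 to 5 and replicate 5 above it. The luminal mammary epithelium list averaged 2.68 to 3.12 in carcinoma replicates 1 to 5, 1.8 in carcinoma replicate 6, and 2.85, 3.42, 2.47, 0.48 and 2.88 in metastases replicates 1 to 5. Krt8, a luminal keratin, was -1.49 in metastases replicate 4 against 3.65 to 5.18 in the other metastases. In the carcinomas it was 1.76 in replicate 6 and 3.32 to 5.16 in the others, so that these 2 samples held the lowest levels of a luminal tumor keratin. In RNA from sorted cell mixtures, fewer cells of a type and less RNA per cell cannot be told apart. The median sample-channel intensity also differed, at 297 to 432 in carcinoma replicates 1 to 5, 865 in carcinoma replicate 6 and 512 to 732 in the metastases. For many lists, counts of called members are followed by counts without single samples. Not every count that moved is given, so a list without them need not be stable. Over all genes, 4.73% were called higher in metastases and 5.34% lower. Without carcinoma replicate 6 these shares were 6.39% and 7.06%, against which list counts without that sample are to be read.

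**Figure D1:**
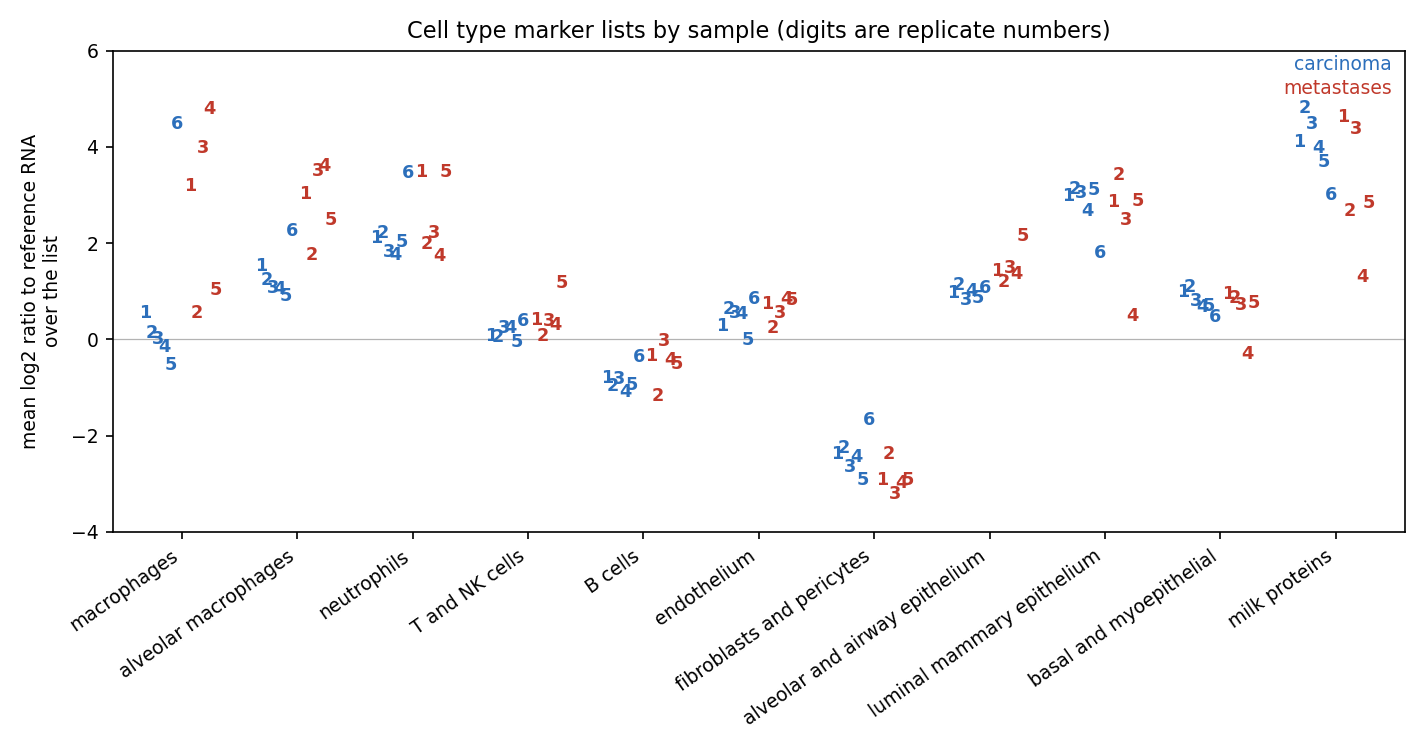
Mean log2 ratio to the reference RNA over each cell type marker list (vertical axis) for every sample, with carcinoma in blue, metastases in red and digits for the replicate number. On the macrophage list, carcinoma replicate 6 (4.47) sits with metastases replicates 1, 3 and 4, and on the luminal list metastases replicate 4 (0.48) lies far below the other samples.

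Of 28786 genes, 2900 were called different between lung metastases and carcinoma (10.1% of all genes), by a limma adjusted p under 0.05 together with a 2-fold or larger change. Of these, 1363 were higher in metastases (4.73% of all genes) and 1537 lower (5.34%). At 4-fold or more, 434 genes were called (1.51%), 266 of them higher and 168 lower. The median change over all genes was -0.05. The groups did not overlap for 13.5% of all genes, and for 1522 of the 2900 called. Each of the 3 shared slides held samples of both groups, and 2719 of the called genes (93.8%) moved in the called direction within all of them, while 54.9% of all genes moved one way within all 3. The calls were made on these same arrays, so the larger share among called genes is partly fixed by the call. Without carcinoma replicate 6, 3873 genes were called, 1840 higher (6.39%) and 2033 lower (7.06%), among them 1312 of the 1363 higher and 1508 of the 1537 lower genes called with all 6 carcinomas. Without metastases replicate 5, 3529 were called, and the count at 4-fold or more rose from 434 to 670, against 798 without carcinoma replicate 6. The deposited ratios gave 3191 calls with a larger share higher in metastases, 57.5% against 47.0% here.

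**Figure D2:**
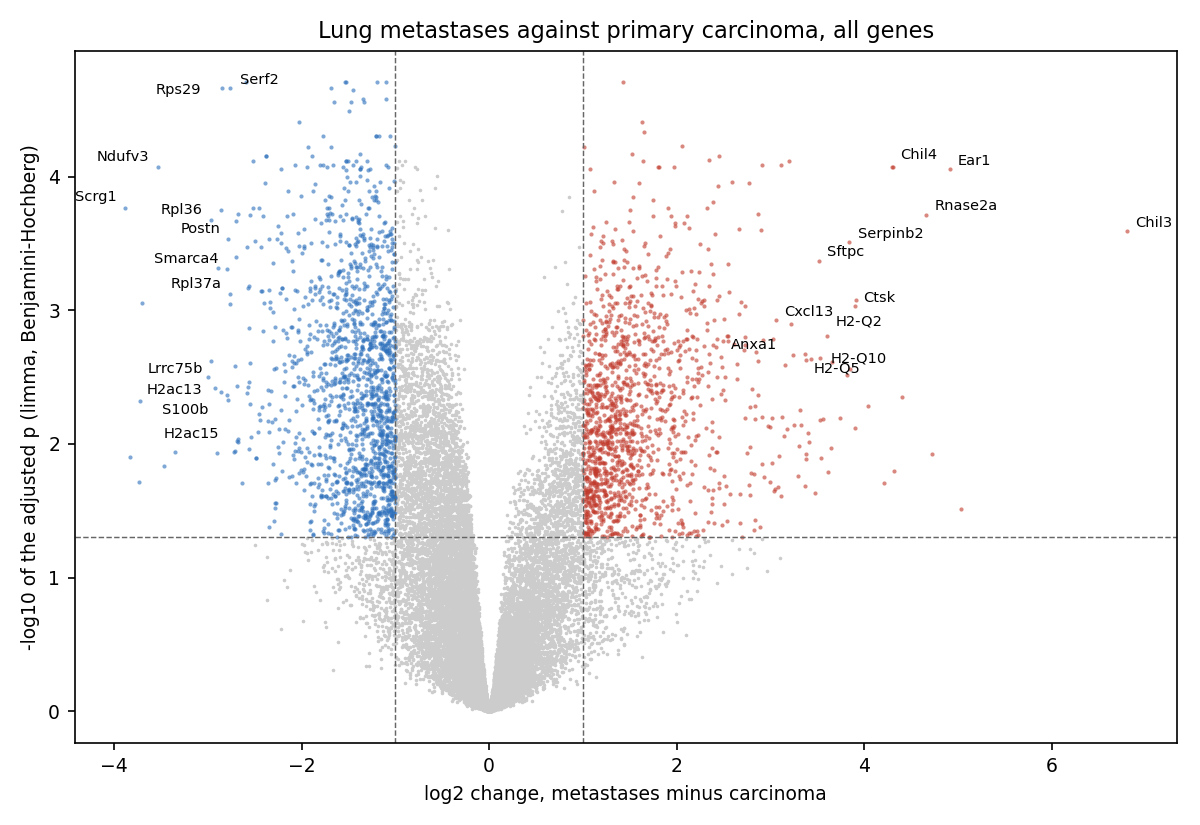
Change in lung metastases against carcinoma (horizontal axis, log2) and the -log10 of the limma adjusted p (vertical axis) for 28786 genes, with the 1363 genes called higher in red and the 1537 called lower in blue. Dashed lines mark the thresholds, and the 12 largest rises and falls with separated groups are named.

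Among genes with separated groups, the largest rises were in chitinase-like proteins and ribonucleases known from alveolar macrophages. Chil3, a chitinase-like protein secreted by alveolar macrophages, measured 6.29, 2.80, 9.19, 9.76 and 5.77 in metastases replicates 1 to 5, and its lowest, median and highest values in the carcinomas were -0.63, 0.03 and 0.45. Every metastasis exceeded every carcinoma, carcinoma replicate 6 included, and the change was 6.80 ± 1.02 (log2 ± SE, adjusted p = 0.000255). The neighbouring Chil4 changed by 4.29 ± 0.55 (adjusted p = 8.52e-05). The probes lie on chromosome 3 at 105965855-105965914 for Chil3 and at 106022134-106022413 for Chil4 (mm7), and the 2 genes are near copies whose signals may be shared. Ear1, an eosinophil-associated ribonuclease that alveolar macrophages also make, measured 6.55, 5.08, 7.27, 7.88 and 6.27 in metastases replicates 1 to 5 and 0.39, 0.85 and 4.77 at the lowest, median and highest carcinoma. The groups did not overlap, but carcinoma replicate 6 held the highest carcinoma value, and Ear1 rose by 4.91 ± 0.64 (adjusted p = 8.85e-05). Its relative Rnase2a rose by 4.66 ± 0.67 (adjusted p = 0.000192), with the same reserve about shared signal. Marco, a scavenger receptor of alveolar macrophages, measured 2.89, 1.89, 2.28, 2.68 and 3.35 in metastases replicates 1 to 5 and did not exceed 1.35 in any carcinoma. It rose by 1.66 ± 0.36 (adjusted p = 0.00342). Siglecf, another alveolar macrophage receptor, was well above background on only 3 metastasis and 2 carcinoma arrays and was not called (0.17 ± 0.25). Of the 17 alveolar macrophage genes measured, 8 rose, none fell and 9 did not pass, with a median change of 1.48 against -0.05 over all genes. In all 11 rose and 1 fell without carcinoma replicate 6, and 5 rose without metastases replicate 3 or 4. The mean of this list was 3.01, 1.76, 3.5, 3.60 and 2.49 in metastases replicates 1 to 5, against 0.90 to 1.53 in carcinoma replicates 1 to 5 and 2.25 in carcinoma replicate 6.

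Genes of the alveolar and airway epithelium rose in part. Sftpc, the surfactant protein of type II alveolar cells, measured 5.75, 4.87, 5.57, 5.57 and 6.54 in metastases replicates 1 to 5 and 1.15, 1.95 and 3.29 at the lowest, median and highest carcinoma. Sftpc was picked among genes with separated groups and rose by 3.51 ± 0.57 (adjusted p = 0.000424). Sftpa1, a surfactant collectin, rose by 2.87 ± 0.41 and was well above background on 3 of the 6 carcinoma arrays. Scgb1a1, the secretoglobin of club cells, rose by 1.82 ± 0.33. All these genes were highest in metastases replicate 5, the sample closest to the carcinomas across genes among the metastases. Sftpb, another surfactant protein, was slightly lower in every metastasis than in any carcinoma and was not called (-0.26 ± 0.14). Aqp5, a water channel of type I alveolar cells and of glandular epithelium including the mammary gland, fell by 2.49 ± 0.68 on the log2 scale (adjusted p = 0.0128). In all, 3 of the 18 measured members of this list rose and 1 fell (16.7% and 5.56%, beside 4.73% and 5.34% of all genes). The median change was 0.33, and 5 rose without carcinoma replicate 6 or without metastases replicate 2.

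All 22 genes of the general macrophage list were higher in metastases on average, with a median change of 1.68, but only 5 were called (22.7%). Without carcinoma replicate 6, 16 were called and the median change was 2.43. The count was 8 without metastases replicate 2, 9 without metastases replicate 5 and 3 without any other single sample. Csf1r, the receptor for macrophage colony-stimulating factor, measured 2.92, -0.27, 3.29, 4.48 and 0.46 in metastases replicates 1 to 5, against -1.33 to -0.20 in carcinoma replicates 1 to 5 and 4.02 in carcinoma replicate 6. Carcinoma replicate 6 thus exceeded all metastases but replicate 4, and the difference of 2.17 ± 0.87 was not called (adjusted p = 0.0799, and 0.00306 without carcinoma replicate 6). Adgre1, a surface adhesion receptor of macrophages, gave 2.79 ± 1.04 (adjusted p = 0.0607, and 0.00288 without carcinoma replicate 6). Cd68, a lysosomal glycoprotein of macrophages, was not called either way (1.01 ± 0.76, and 1.68 without carcinoma replicate 6, adjusted p = 0.0507). The called members were Mrc1, the mannose receptor (2.68, well above background on 2 of the 6 carcinoma arrays), Ctss, a cathepsin of antigen-presenting cells, Clec7a, the receptor for fungal beta-glucan, Lyz2, the macrophage lysozyme, and Mpeg1, a pore-forming protein of phagocytes. Ctss measured 7.31, 1.53, 8.26, 8.41 and 1.71 in metastases replicates 1 to 5, against -2.09 to 0.24 in carcinoma replicates 1 to 5 and 7.77 in replicate 6. Its change was 5.03 ± 1.61 (adjusted p = 0.0304), and metastases replicates 2 and 5 lay far below the other metastases. Mpeg1 rose by 3.41 ± 0.88, Lyz2 by 4.32 ± 1.22 and Clec7a by 4.72 ± 1.27.

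**Figure D3:**
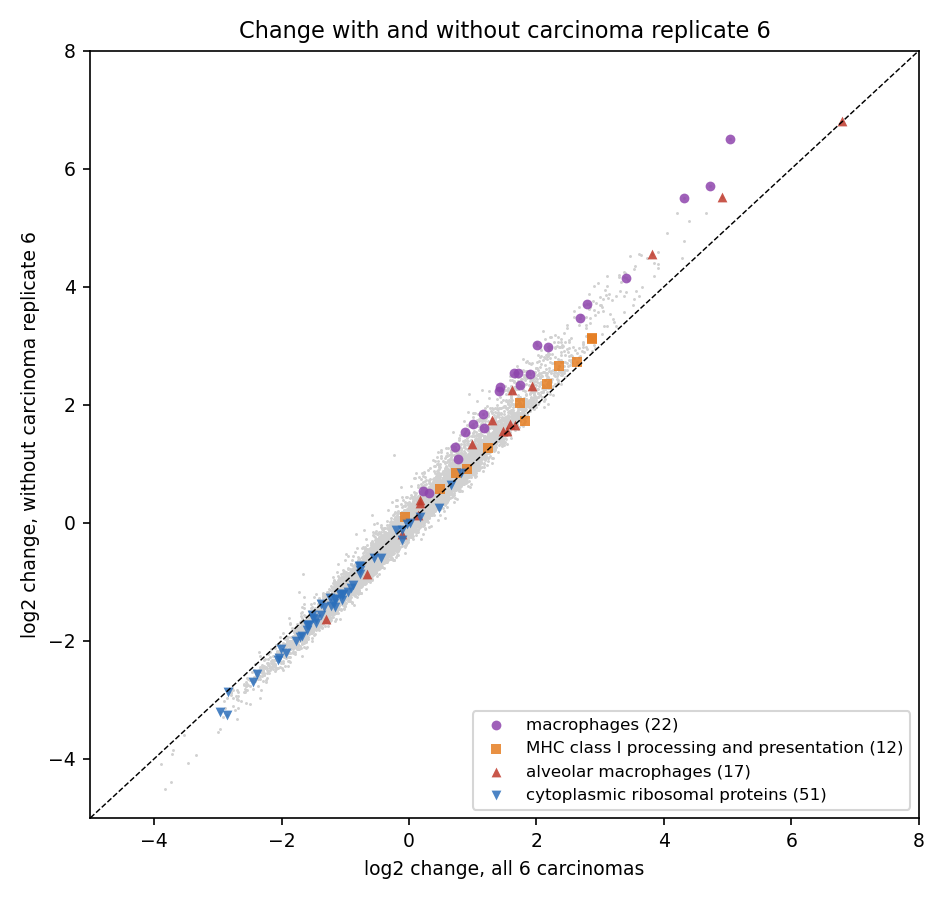
Log2 change of each gene with all 6 carcinomas (horizontal axis) and without carcinoma replicate 6 (vertical axis), with all 28786 genes in grey, 4 lists in colour and the dashed line at equality. Macrophage genes lie above the line, with a list median of 1.68 that moved to 2.43, whereas the MHC class I list moved from 1.78 to 1.88.

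None of the 13 neutrophil, 15 T and NK cell or 10 B cell genes measured was called with all samples. Of the neutrophil genes, 2 were higher without carcinoma replicate 6, namely Csf3r, a growth factor receptor, and Mmp9, a gelatinase, and 1 without metastases replicate 2. S100a8 and S100a9, the calprotectin subunits of neutrophils, gave -1.07 ± 0.67 and -0.12 ± 0.85, with values that overlapped widely. Cd3d, a T cell receptor subunit, was 3.5 in metastases replicate 5 and at most 0.70 in the other metastases, and was not called. Of 9 dendritic cell genes 1 was called higher (11.1%, against 4.73% of all genes). It was Ccr7, the chemokine receptor of migrating dendritic cells (2.11 ± 0.75, adjusted p = 0.0477). That call was lost without any of carcinoma replicates 1 to 5 or metastases replicates 1, 3 or 4. Flt3, Zbtb46 and Xcr1, the defining dendritic cell genes, gave -0.31, -0.35 and -0.53 and were not called. In the endothelial list, Vwf, the von Willebrand factor, rose by 1.74 ± 0.45 and Emcn, a sialomucin of capillaries and veins, fell by 1.15 ± 0.38, a call lost without carcinoma replicate 6 (adjusted p = 0.0602), carcinoma replicates 2, 3 or 4 or metastases replicates 2, 3 or 4. Of the 16 endothelial genes, 6.25% rose and 6.25% fell with all samples, beside 4.73% and 5.34% of all genes. There were 2 higher without carcinoma replicate 6 or metastases replicate 4, and 4 without metastases replicate 2.

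Secreted inflammatory genes were high in the samples that were high on the macrophage list, carcinoma replicate 6 among them. Of 33 chemokine and cytokine genes, 10 rose and none fell (30.3%, median change 1.10), and 17 rose without carcinoma replicate 6. The count was 12 without metastases replicate 2 or 5, 2 without metastases replicate 3, 3 without metastases replicate 4, 4 without carcinoma replicate 5 and 6 to 7 without any other single sample. Cxcl3, a neutrophil chemoattractant, measured 5.69, 2.93, 6.98, 7.99 and 3.54 in metastases replicates 1 to 5, against 0.29 to 1.25 in carcinoma replicates 1 to 5 and 5.46 in replicate 6. It rose by 3.74 ± 0.90 (adjusted p = 0.00644). Il1a and Il1b, the inflammatory interleukin-1 cytokines, rose by 3.32 ± 0.78 and 3.0 ± 0.88, and the chemokine Ccl9 by 3.37 ± 1.0. Il1a was well above background on 1 of the 6 carcinoma arrays, so its size there is not well measured. Il6, the cytokine that activates Stat3, measured 4.57, 3.23, 5.27, 5.73 and 3.17 in metastases replicates 1 to 5 and rose by 2.51 ± 0.79 (adjusted p = 0.0279), with carcinoma replicate 6 at 4.66 and the other carcinomas at or below 2.11. Ccl2, the monocyte chemoattractant, was not called (2.67 ± 1.0, adjusted p = 0.0612, and 0.00109 without carcinoma replicate 6). Cxcl13, a chemoattractant of B cells outside that list, had no overlap between groups. It measured 3.48, 2.92, 4.30, 5.58 and 3.09 in metastases replicates 1 to 5 and at most 2.22 in the carcinomas, a rise of 3.06 ± 0.56 (adjusted p = 0.00118). The part of macrophage RNA in these rises was not tested.

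Matrix proteases and their inhibitors changed in both directions, with 5 of 28 measured genes higher (17.9%, against 4.73% of all genes) and 4 lower (14.3%, against 5.34%). Without carcinoma replicate 6, 8 were higher and 5 lower. Without any other single sample 4 to 6 were higher and 3 or 4 lower. Of 27 cathepsin and lysosomal genes 4 were higher and 1 lower (14.8% and 3.7%, beside 4.73% and 5.34% of all genes). Of these, 10 were higher without carcinoma replicate 6, against 5 without metastases replicate 2 or 5 and 2 without any other single sample. Ctsk, a collagen-degrading cathepsin, measured 2.94, 2.59, 5.32, 6.03 and 3.03 in metastases replicates 1 to 5 and -0.68, -0.35 and 2.47 at the lowest, median and highest carcinoma. The groups did not overlap, although carcinoma replicate 6, the highest carcinoma, lay just below metastases replicate 2, and the rise was 3.90 ± 0.70 (adjusted p = 0.000936). Mmp13, an interstitial collagenase, rose by 4.40 ± 1.0, and Mmp12, the macrophage elastase, by 2.28 ± 0.79, both with carcinoma replicate 6 far above the other carcinomas. Mmp12 was well above background on 1 carcinoma array. Adamts4, an aggrecanase, rose by 2.06 ± 0.34 with no overlap between groups. Serpinb2, an inhibitor of plasminogen activators, measured 4.59, 4.42, 3.66, 5.09 and 3.87 in metastases replicates 1 to 5. It measured -0.30 to 0.16 in carcinoma replicates 1 to 5 and 3.29 in replicate 6, and rose by 3.84 ± 0.59 (adjusted p = 0.000311). Anxa1, the phospholipid-binding annexin A1, measured 4.75, 5.36, 4.11, 2.98 and 3.42 in metastases replicates 1 to 5 and 0.32, 0.98 and 1.36 at the lowest, median and highest carcinoma. Here carcinoma replicate 6 (1.36) was close to the other carcinomas and metastases replicate 2 was the highest, and Anxa1 rose by 3.25 ± 0.66 (adjusted p = 0.00217).

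**Figure D4:**
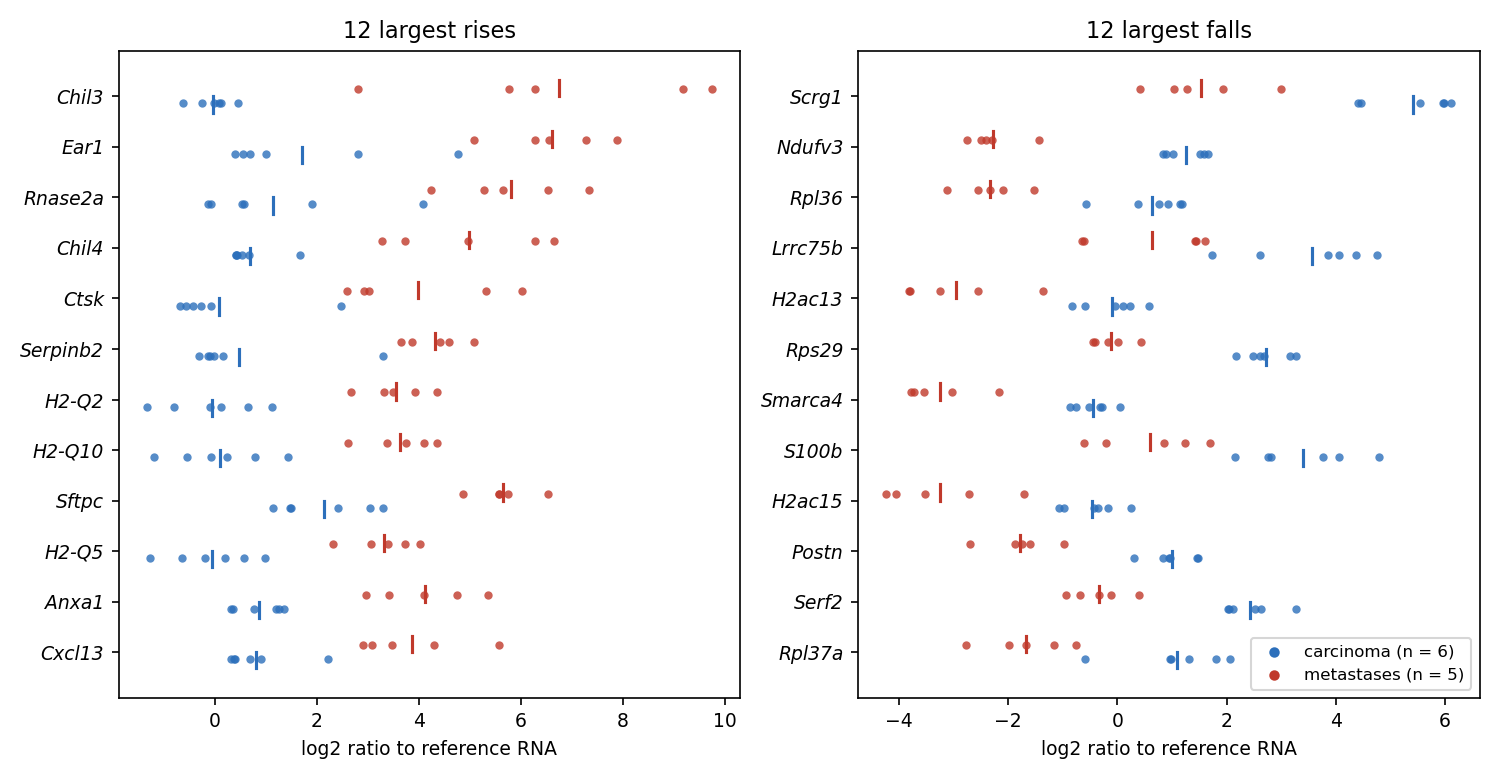
Log2 ratios to the reference RNA (horizontal axis) of the 12 largest rises and 12 largest falls among called genes with separated groups, with 1 point per sample, carcinoma in blue, metastases in red and short bars for the group means. In Chil3 all 5 metastases (2.80 to 9.76) lie to the right of all 6 carcinomas (-0.63 to 0.45), and in Ear1, Rnase2a, Ctsk and Serpinb2 1 carcinoma lies near the metastases.

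The mean of the MHC class I list was higher in every metastasis than in any carcinoma, with metastases replicate 2 the lowest metastasis. Of the 12 genes of class I processing and presentation measured, 7 rose and none fell (58.3%, median change 1.78). The count was 8 without carcinoma replicate 6 and 10 without metastases replicate 2. H2-K1, a classical class I heavy chain, measured 4.15, 3.44, 4.14, 3.11 and 3.40 in metastases replicates 1 to 5 and 0.44, 1.64 and 2.44 at the lowest, median and highest carcinoma. The groups did not overlap, and metastases replicates 2 and 5, the 2 lowest on the macrophage list, lay within the range of the others. The part of macrophage RNA in the rises of this list was not tested. H2-K1 rose by 2.16 ± 0.62 (adjusted p = 0.0167) and H2-D1, the second classical heavy chain, by 2.35 ± 0.66 (adjusted p = 0.015). Tap1, a subunit of the peptide transporter, measured 1.97, 1.31, 2.58, 1.69 and 1.48 in metastases replicates 1 to 5 and -2.32, -0.81 and 0.52 at the lowest, median and highest carcinoma, a rise of 2.64 ± 0.55 (adjusted p = 0.00251). The nonclassical genes H2-T23 and H2-Q7 rose by 2.87 ± 0.59 and 2.87 ± 0.65. Probes named for H2-Q2, H2-Q5 and H2-Q10 rose by 3.61, 3.37 and 3.53, but these class I genes are near copies, so that their probes may report the same transcripts. B2m, the light chain shared by all class I molecules, was not called (1.74 ± 0.68, adjusted p = 0.0725, and 0.0335 without carcinoma replicate 6, when it was called). The carcinomas varied in this list, with means of 0.01, 0.30, 1.0, 0.80, 1.61 and 1.57 in replicates 1 to 6, and all metastases lay above them at 2.71, 1.84, 2.94, 2.53 and 2.65 in metastases replicates 1 to 5. MHC class II genes were highest in metastases replicates 1, 3 and 4 and carcinoma replicate 6. Of 9 measured, 4 rose (median change 1.60), namely H2-Aa, H2-Ab1 and H2-Eb1, chains of the class II molecule, and Cd74, their invariant chain. The count was 6 without carcinoma replicate 6 or metastases replicate 2, 4 without metastases replicate 5 and 1 without any other single sample. Cd74 measured 4.12, -0.02, 4.38, 4.47 and 1.61 in metastases replicates 1 to 5, against -0.64 to 0.59 in carcinoma replicates 1 to 5 and 3.37 in replicate 6, and rose by 2.54 ± 0.85 (adjusted p = 0.0379).

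Interferon response genes rose as a list, with 17 of 39 measured members higher (43.6%), none lower and a median change of 1.24. The count was 20 higher without carcinoma replicate 6, 25 without metastases replicate 2 and 12 to 18 without any other single sample. Without metastases replicate 5, 1 member was lower. Irf1, an interferon-induced transcription factor, measured 2.48, 2.20, 2.96, 3.24 and 2.67 in metastases replicates 1 to 5 and 0.82, 1.23 and 1.57 at the lowest, median and highest carcinoma. Separation of the groups was complete, and Irf1 rose by 1.5 ± 0.21 (adjusted p = 0.000178), while its second probe changed by -0.19. Stat2, a signal transducer of interferon receptors, rose by 1.59 ± 0.31. Gbp3, an interferon-induced GTPase, measured 4.97, 3.21, 5.67, 5.22 and 5.09 in metastases replicates 1 to 5 and 0.86, 2.41 and 3.13 at the lowest, median and highest carcinoma, with no overlap and a rise of 2.69 ± 0.48 (adjusted p = 0.000873). Rsad2, the antiviral protein viperin, measured 6.65, 4.44, 7.79, 8.06 and 3.78 in metastases replicates 1 to 5 and rose by 3.18 ± 0.79, and carcinoma replicate 6, at 5.90, exceeded metastases replicates 2 and 5. Ifit2, an antiviral protein with tetratricopeptide repeats, rose by 3.66 ± 0.76 (well above background on 4 of the 6 carcinoma arrays) and the GTPase Gbp6 by 2.75 ± 0.74. The list mean was 2.75, 1.22, 3.03, 2.54 and 2.03 in metastases replicates 1 to 5, and 0.90, 0.44, 0.64, 1.01, 1.79 and 1.59 in carcinoma replicates 1 to 6, so that metastases replicate 2 lay within the range of the carcinomas.

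Genes of this response share a promoter element, the interferon-stimulated response element, whose core GAAANNGAAA is bound by interferon regulatory factors. The core was searched on both strands in the 200 bases upstream of each start site (RefSeq, GRCm38.p6), counting overlapping matches. It was present in 2.65% of 27025 genes with a promoter entry, in 15 of the 30 interferon response genes with an entry and in 8 of the 13 of them called higher. Among all genes called higher, 41 of 907 had it (4.52%), and among those called lower 13 of 999 (1.30%). In the MHC class I list, 1 of the 6 called members with an entry had it, and 2 of 11 measured. The 4 promoters below were chosen for their matches among genes called higher, to show the element, and capitals mark the matches on either strand. The promoters of Irf1, Irf7, Stat2, Ifih1, Ifit2, H2-K1, H2-D1, H2-Q7, Tap1 and Tapbp, also called higher, held no match in this window and are not shown. Isg15, a ubiquitin-like protein, rose by 1.66 ± 0.55 and was chosen after its values were seen because it had 3 overlapping matches. The stretches are chr3:142559844-142560043 (plus strand) for Gbp3, chr12:26456453-26456652 (minus strand) for Rsad2, chr17:36032702-36032901 (minus strand) for H2-T23 and chr4:156200819-156201018 (minus strand) for Isg15, each written 5′ to 3′ and ending at the base before the start site.
Gbp3: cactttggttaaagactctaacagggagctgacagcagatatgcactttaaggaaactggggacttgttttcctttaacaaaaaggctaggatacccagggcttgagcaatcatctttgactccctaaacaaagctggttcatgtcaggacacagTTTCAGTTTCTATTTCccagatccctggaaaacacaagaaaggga
Rsad2: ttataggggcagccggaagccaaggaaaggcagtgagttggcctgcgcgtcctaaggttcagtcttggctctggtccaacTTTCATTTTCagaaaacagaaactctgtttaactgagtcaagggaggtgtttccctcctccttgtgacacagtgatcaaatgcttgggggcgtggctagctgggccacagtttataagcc
H2-T23: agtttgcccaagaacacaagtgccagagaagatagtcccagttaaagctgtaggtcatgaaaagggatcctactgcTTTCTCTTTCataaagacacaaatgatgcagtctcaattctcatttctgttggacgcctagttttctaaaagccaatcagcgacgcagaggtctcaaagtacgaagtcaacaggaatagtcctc
Isg15: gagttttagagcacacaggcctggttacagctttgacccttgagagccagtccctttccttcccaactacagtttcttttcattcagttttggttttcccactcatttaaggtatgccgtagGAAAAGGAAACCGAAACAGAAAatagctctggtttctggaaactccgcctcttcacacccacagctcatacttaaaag
The matches stand 29 and 35 bases from the start site shown in Gbp3, 110 in Rsad2, 114 in H2-T23 and 56 to 68 in Isg15. Gbp3 has another start site, whose window held no match. A match is a description of the letters, not evidence of binding.

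**Figure D5:**
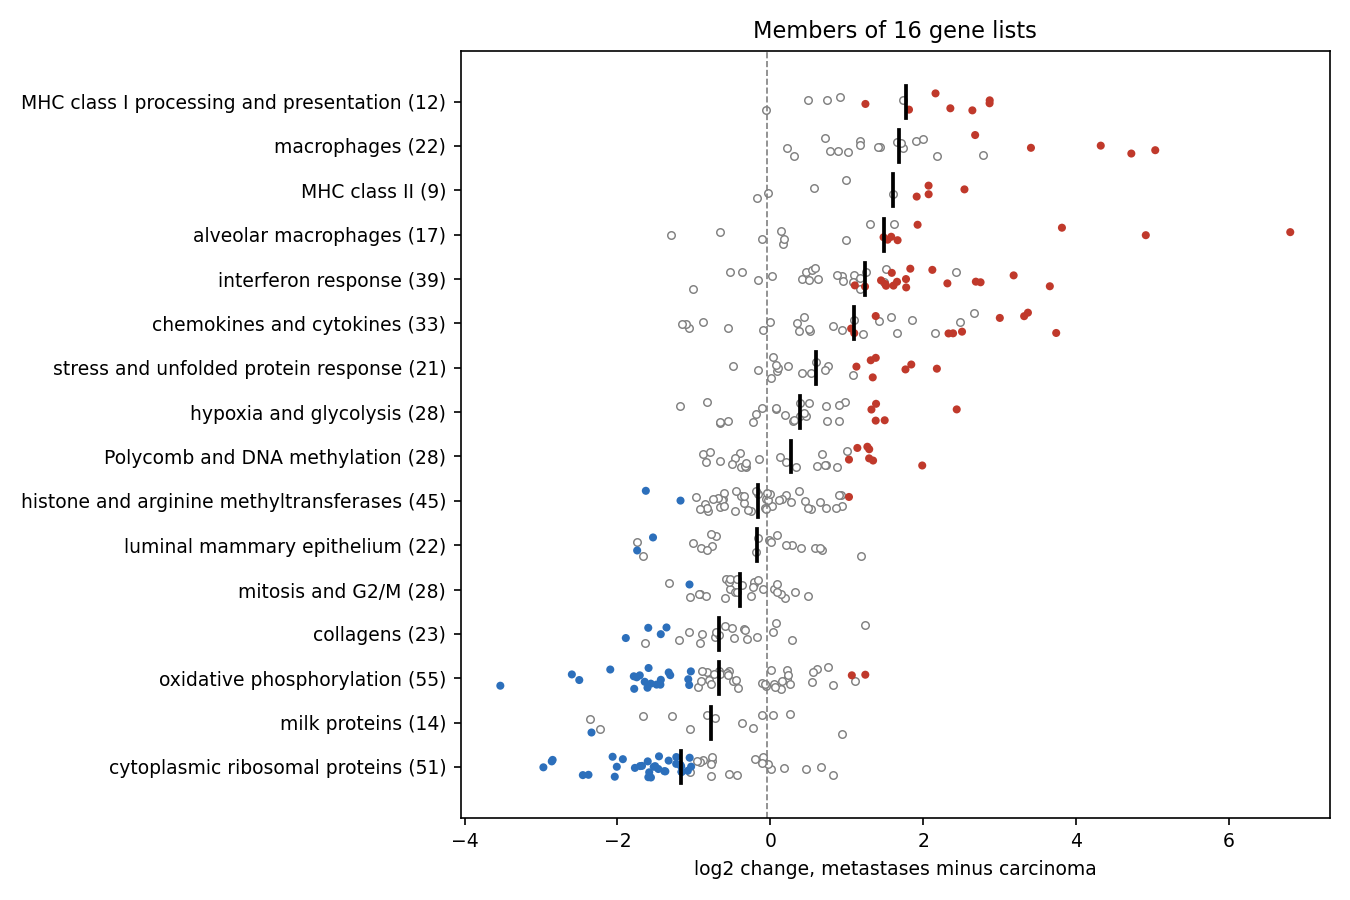
Log2 change in metastases against carcinoma (horizontal axis) of each member of 16 gene lists, with the number measured in brackets, filled points for called genes, open points for the rest, black bars for list medians and the dashed line for the median of all genes (-0.05). The lists run from cytoplasmic ribosomal proteins (median -1.18) at the bottom to MHC class I (1.78) at the top.

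Many genes of the ribosome and the respiratory chain fell. Of 51 cytoplasmic ribosomal protein genes measured, 32 fell (62.7%, against 5.34% of all genes) and none rose, with a median change of -1.18. The count was 36 without carcinoma replicate 6 and 29 to 34 without any other single sample. Rps29, of the small subunit, measured 0.01, -0.45, -0.17, -0.42 and 0.44 in metastases replicates 1 to 5 and 2.17, 2.65 and 3.27 at the lowest, median and highest carcinoma. Carcinoma replicate 6 (2.61) was in the middle of the carcinomas here, and Rps29 fell by 2.85 ± 0.29 on the log2 scale (adjusted p = 2.17e-05). Rpl36, of the large subunit, measured -2.34, -2.10, -2.56, -3.12 and -1.53 in metastases replicates 1 to 5 and -0.57, 0.84 and 1.19 at the lowest, median and highest carcinoma, the lowest being carcinoma replicate 6. It fell by 2.97 ± 0.43 (adjusted p = 0.000211), and its second probe by 2.68. Rpl27 and Rpl37a, also of the large subunit and the latter outside the list, fell by 2.45 ± 0.35 and 2.77 ± 0.48, with carcinoma replicate 6 between the groups. Rps27 fell by 2.86 ± 0.41, and there carcinoma replicate 6 (-0.76) lay below metastases replicate 5 (-0.60). Not every member followed, since Rpl3, Rpl4 and Rpl5 gave 0.66 ± 0.34, -0.10 ± 0.21 and 0.82 ± 0.38 and were not called. Ribosomal protein genes have many processed pseudogenes, and a probe may bind their transcripts too. The list means were -0.98, -1.07, -0.98, -1.36 and -0.35 in metastases replicates 1 to 5, and -0.06 to 0.67 in carcinoma replicates 1 to 5 and -0.48 in replicate 6.

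Of 55 oxidative phosphorylation genes, 20 fell (36.4%) and 2 rose, with a median change of -0.68, and the counts were the same without carcinoma replicate 6. Across single samples left out, 17 to 21 fell, and none rose without carcinoma replicate 1 or metastases replicate 3, 1 without metastases replicate 4 and 4 without metastases replicate 5. Ndufb10, a subunit of complex I, measured -1.71, -2.03, -1.81, -2.63 and -1.67 in metastases replicates 1 to 5 and -0.07, 0.72 and 0.94 at the lowest, median and highest carcinoma. The groups did not overlap, and it fell by 2.60 ± 0.26 (adjusted p = 1.97e-05). Atp5k, a subunit of the ATP synthase, fell by 2.50 ± 0.38, and Ndufb2, Ndufa2 and Ndufa4, small proteins of the respiratory chain, by 2.09 ± 0.30, 1.49 ± 0.25 and 1.31 ± 0.29. Ndufv3, a further complex I subunit, fell by 3.53 ± 0.45 (adjusted p = 8.52e-05), but its other probes changed by -0.39 and 0.02, so the fall rests on 1 probe. Ndufa1 was not called (-0.11 ± 0.23). The sample-channel intensity given above was also higher in the metastases and in carcinoma replicate 6 than in the other carcinomas, and its part in these falls was not tested.

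Among single genes, Scrg1, a small secreted protein first described in prion disease, had the largest fall with separated groups. It measured 1.27, 2.99, 1.03, 0.41 and 1.94 in metastases replicates 1 to 5 and 4.41, 5.75 and 6.12 at the lowest, median and highest carcinoma, a fall of 3.89 ± 0.55 (adjusted p = 0.00017). S100b, a calcium-binding protein known from glia, measured -0.21, 1.69, 0.85, -0.61 and 1.25 in metastases replicates 1 to 5 and 2.15, 3.30 and 4.79 at the lowest, median and highest carcinoma. It fell by 2.80 ± 0.63 (adjusted p = 0.00432), and the lowest carcinoma was replicate 5. Serf2 and Lrrc75b fell by 2.77 ± 0.29 and 2.92 ± 0.65, and for Lrrc75b carcinoma replicate 6 (1.73) came close to the highest metastasis (1.61). The histone H2A genes H2ac13 and H2ac15 fell by 2.86 ± 0.64 and 2.79 ± 0.64, and as near copies in 1 cluster they may have been measured together. Smarca4, the ATPase of the SWI/SNF chromatin remodelling complex, fell by 2.80 ± 0.46 (adjusted p = 0.000493), but its other probes changed by -0.02 and 0.01.

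Of 22 luminal genes, 2 fell (9.09%, against 5.34% of all genes) and none rose, with a median change of -0.18. There were 3 lower without carcinoma replicate 6, none lower and 1 higher without metastases replicate 4, and 1 lower without metastases replicates 1 or 3 or any of carcinoma replicates 1 to 5. Krt8, Krt18 and Krt19, the keratins of luminal cells, were not called (-0.90 ± 1.06, -1.75 ± 0.96 and 0.59 ± 0.78). The fallen members were Spint2, an inhibitor of membrane proteases (a fall of 1.74 ± 0.51), and Ehf, an epithelial Ets factor (a fall of 1.54 ± 0.49), both low in carcinoma replicate 6 as well. The milk proteins had a median change of -0.78. Wap, whey acidic protein, was the only member of 14 to be called (7.14%, against 5.34% of all genes), a fall of 2.34 ± 0.80 (adjusted p = 0.0417). That call was lost without metastases replicate 1, 2 or 4 or any of carcinoma replicates 1 to 5, and 2 members of the milk list fell without carcinoma replicate 6. Csn2, beta-casein, spread widely within the metastases, at 9.61, 1.83, 9.57, 1.20 and 4.10 in metastases replicates 1 to 5, and was not called. Of 15 basal and myoepithelial genes 1 rose and 1 fell (6.67% each, beside 4.73% and 5.34% of all genes). There were 2 lower without carcinoma replicate 6 or metastases replicate 2. No rise was called without carcinoma replicates 1 to 5 or metastases replicates 1, 3 or 4 in turn. The keratins Krt5 and Krt14 gave -0.03 ± 0.31 and -0.34 ± 0.42. Postn, the matricellular protein periostin of fibroblasts, measured -1.74, -0.97, -1.60, -1.88 and -2.71 in metastases replicates 1 to 5 and 0.31, 0.96 and 1.48 at the lowest, median and highest carcinoma. No metastasis reached any carcinoma, and Postn fell by 2.78 ± 0.42 (adjusted p = 0.000292). Acta2, the smooth muscle actin of myofibroblasts and myoepithelium, fell by 1.26 ± 0.33, and these were the 2 of 18 fibroblast and pericyte genes to fall (11.1%), or 3 without carcinoma replicate 5. Of 23 collagen genes 4 fell (17.4%) and none rose (median change -0.67), with 1 lower without metastases replicate 4 and 2 without metastases replicate 3 or carcinoma replicate 2. The 4 that fell with all samples were Col5a3, Col7a1, Col18a1 and Col8a1, by 1.43 to 1.89 for the first 3 and 1.36 ± 0.38 for the last. Col1a1, the main fibrillar collagen, was not called (-1.07 ± 0.51, adjusted p = 0.146).

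Of 28 mitotic genes 1 fell (3.57%, against 5.34% of all genes), with a list median of -0.40. It was Cdca8, a subunit of the chromosomal passenger complex (1.06 ± 0.31), and Mki67, Top2a and Ccnb1 were not called. Ccnb1, cyclin B1, was called without carcinoma replicate 6 (-1.45, adjusted p = 0.0485). The count of mitotic genes lower was 6 without metastases replicate 5, 2 without carcinoma replicate 1 or 6, and 0 without carcinoma replicate 5 or metastases replicate 2 or 4. Metastases replicate 4 had the lowest mean on this list (-3.57, against -3.01 to -2.05 in the other metastases). Of 32 replication genes 1 rose and 1 fell (3.1% each, beside 4.73% and 5.34% of all genes). There were 2 higher without metastases replicate 4 and 2 lower without metastases replicate 5. None was lower without carcinoma replicate 4 or 5 or metastases replicate 2, 3 or 4. The rise was in Pcna, the sliding clamp of DNA polymerases, which measured 0.13, -0.25, 0.30, 0.87 and -0.99 in metastases replicates 1 to 5, against -2.89 to -2.32 in carcinoma replicates 1 to 5 and 0.23 in replicate 6 (change 2.10 ± 0.50). Mcm10, a replication initiation factor, fell by 1.03 ± 0.27, and Mcm2, a subunit of the replicative helicase, gave -0.66 ± 0.24. Of 25 p53 target genes 4 rose (16%, beside 4.73% of all genes) and none fell, with a median change of 0.30. The count was 6 without carcinoma replicate 6 and 2 without carcinoma replicate 3 or 4 or metastases replicate 5, the last with a median of -0.12. The 4 that rose with all samples were Pmaip1, which encodes the apoptosis inducer Noxa (2.01 ± 0.65), Ccng1, cyclin G1 (1.39 ± 0.25), Mdm2, the p53 ubiquitin ligase (1.17 ± 0.32), and Cdkn1a, the p21 cell cycle inhibitor (1.13 ± 0.37). Only for Ccng1 were the groups apart.

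Genes of protein folding and glycolysis rose in part. In the stress and unfolded protein response list 7 of 21 genes rose and none fell (33.3%, median change 0.60), and 6 or 7 rose without any single sample. Chac1, a glutathione-degrading enzyme induced by Atf4, measured 1.69, -0.03, 1.14, -0.70 and 2.08 in metastases replicates 1 to 5 and -2.19, -1.28 and -0.83 at the lowest, median and highest carcinoma, with no overlap and a rise of 2.18 ± 0.42 (adjusted p = 0.00158). Hspa5, the main chaperone of the endoplasmic reticulum, measured 0.21, 0.26, 0.57, 0.91 and -1.98 in metastases replicates 1 to 5 and rose by 1.84 ± 0.52 (adjusted p = 0.0164), with metastases replicate 5 inside the range of the carcinomas. Pdia6, a disulfide isomerase, and Hsp90b1, the chaperone Grp94, rose by 1.77 ± 0.34 and 1.38 ± 0.37. Of 28 hypoxia and glycolysis genes 5 rose (17.9%, against 4.73% of all genes) and none fell (median change 0.39). Without metastases replicate 5, 7 rose and 1 fell, and 4 to 6 rose without any other single sample. Pgk1, phosphoglycerate kinase, measured 0.12, 0.49, 0.43, 0.76 and 1.30 in metastases replicates 1 to 5 and -2.11, -1.92 and -1.33 at the lowest, median and highest carcinoma. It rose by 2.44 ± 0.33 with no overlap (adjusted p = 0.000117), and its second probe by 2.71. Hk2, hexokinase 2, and Pgam1, phosphoglycerate mutase, rose by 1.5 ± 0.47 and 1.38 ± 0.37. In lipid synthesis, Srebf1, the transcription factor that induces fatty acid synthesis, fell by 2.35 ± 0.59 and Elovl6, a fatty acid elongase, by 1.87 ± 0.40, while Acly, ATP citrate lyase, rose by 1.46 ± 0.33. These lay among 3 lower and 1 higher of 30 genes of that list (10% and 3.33%, beside 5.34% and 4.73% of all genes). There were 2 lower without metastases replicate 4 and 4 without carcinoma replicate 6 or metastases replicate 5.

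Chromatin regulators were of interest to the study. Of 45 histone and arginine methyltransferase genes, 1 rose and 2 fell (2.22% and 4.44%, beside 4.73% and 5.34% of all genes), with a median change of -0.17. Without carcinoma replicate 6, 5 fell, where 7.06% of all genes did. The fall count was 3 without metastases replicate 5, and rises were 3 without carcinoma replicate 5, 2 without metastases replicate 1 or 5 and 0 without carcinoma replicate 1, 2 or 4 or metastases replicate 2. Ezh2, which methylates histone H3 lysine 27, measured -0.89, -0.74, -1.11, -1.62 and -1.06 in metastases replicates 1 to 5 and -2.49, -2.23 and -1.34 at the lowest, median and highest carcinoma, a rise of 1.03 ± 0.25 (adjusted p = 0.00727). Mll3 and Mll5, of the trithorax family, fell by 1.63 ± 0.33 and 1.18 ± 0.28, but their other probes changed by -0.32 to 0.28 and by 0.04 and 0.05. Of the methyltransferases the study names, Setd3 (0.21 ± 0.21), Setd5 (-0.25 ± 0.41), Suv39h2 (0.65 ± 0.24), Prmt3 (0.46 ± 0.17), Prmt6 (0.54 ± 0.19) and Nsd1 (-0.66 ± 0.47) were not called. The study reports the genes it names as higher in metastases than in primary tumors. Its p-values for them compare metastases with adenomas and carcinomas with disseminated cells, not metastases with carcinomas. Whsc1, now Nsd2 (-0.05 ± 0.19), was not called either. The study's supplement labels its Nsd2 values NSD2/Whsc1l1, a different symbol from Whsc1. The Whsc1 probe may therefore measure another gene than those values do. Smyd3 was lower in every metastasis than in any carcinoma but below 2-fold (-0.86 ± 0.12, adjusted p = 0.00015), and its 2 other probes changed by 0.34 and 1.0. Among the other probes for these genes, one for Setd3 rose by 1.37, one for Suv39h2 by 1.42 and one for Prmt6 by 1.94 and were called, so the call for these genes depends on the probe. In the Polycomb and DNA methylation list 7 of 28 genes rose (25%, against 4.73% of all genes) and none fell (median change 0.27). There were 4 higher without metastases replicate 1 and 5 to 8 without any other single sample. Without metastases replicate 5, 1 was lower. Aebp2, a cofactor of Polycomb complex 2, measured 0.12, 0.12, 0.61, 0.72 and -1.32 in metastases replicates 1 to 5 and -2.28, -1.94 and -1.44 at the lowest, median and highest carcinoma, a rise of 1.99 ± 0.33 with no overlap (adjusted p = 0.000599), though it was well above background on 3 of the 6 carcinoma arrays. Eed, a core subunit of that complex, rose by 1.27 ± 0.34, while Suz12, another, stayed under 2-fold (0.87 ± 0.23). Mbd3, of the NuRD complex, Tet2, which oxidizes methylcytosine, and Idh1, isocitrate dehydrogenase, rose by 1.34 ± 0.20, 1.29 ± 0.41 and 1.29 ± 0.38. Of 26 histone demethylases and deacetylases 2 rose and 5 fell (7.69% and 19.2%, beside 4.73% and 5.34% of all genes), with a median change of -0.13. The count lower was 2 without metastases replicate 3, 3 without carcinoma replicates 1, 2 or 3 or metastases replicate 4, and 4 or 5 otherwise, and 1 rose without carcinoma replicate 2 or 4 or metastases replicate 1, 2 or 3. Kdm4c, an H3 lysine 9 demethylase, rose by 1.22 ± 0.35. Jarid1a, also named Kdm5a, an H3 lysine 4 demethylase, fell by 1.24 ± 0.19, while its 3 other probes ranged from -0.20 to 0.76. Hdac10 fell by 1.25 ± 0.31, and Sirt1 fell by 1.56 ± 0.51, with metastases replicate 5 (1.97) among the carcinomas and a second probe that rose by 1.87.

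Of 32 stem cell associated genes 3 rose and 1 fell (9.38% and 3.1%, beside 4.73% and 5.34% of all genes). There were 2 lower without carcinoma replicate 6 or metastases replicate 4 and 3 without metastases replicate 5. Cd44, the hyaluronan receptor, rose by 1.37 ± 0.38, Id3, an inhibitor of differentiation factors, by 1.27 ± 0.34 and Smad2, a transducer of activin and TGF-beta signals, by 1.14 ± 0.19 (adjusted p = 0.000605), the last with no overlap. Lgr5, a Wnt-potentiating receptor of epithelial stem cells, was not well above background on any metastasis array and was at least 3.05-fold lower than in the carcinomas, where it measured 0.40, 1.14 and 3.19 at the lowest, median and highest (adjusted p = 0.0109), while its other probe changed by 0.06. Fzd3, a Wnt receptor, and Xiap, an inhibitor of caspases, both named by the study, were not called (-0.20 ± 0.26 and 0.38 ± 0.18), and Xiap was well above background on 3 metastasis arrays and 1 carcinoma array. The study's marks of significance for stem cell genes compare metastases with adenomas, not with carcinomas. The other Smad genes measured, Smad1, Smad3, Smad4, Smad5, Smad6, Smad7 and Smad9, ranged from -0.99 for Smad1 to 0.85 for Smad7 and were not called, except Smad1 without carcinoma replicate 6 (-1.08, adjusted p = 0.0153). Of 34 Wnt pathway genes 2 rose and 2 fell (5.88% each, beside 4.73% and 5.34% of all genes). There was 1 higher without carcinoma replicate 6 or metastases replicate 2, and 3 were higher without metastases replicate 4. Without metastases replicate 2 or 5, 3 were lower. Ctnnb1, beta-catenin, rose by 2.18 ± 0.52, the coreceptor Lrp6 by 1.02 ± 0.21 (under 2-fold without carcinoma replicate 6, at 0.95), and the coreceptor Lrp5 and the antagonist Sfrp2 fell by 2.00 ± 0.41 and 1.18 ± 0.27. In the Notch pathway, 2 of 22 genes rose and 1 fell (9.09% and 4.55%, beside 4.73% and 5.34% of all genes), or 3 and 2 without carcinoma replicate 6. There were 3 higher without carcinoma replicate 1 or metastases replicate 2, 3 or 5 and none lower without metastases replicate 1. The ligand Jag1 and the receptor Notch2 rose by 1.45 ± 0.29 and 1.44 ± 0.32, the protease Adam17 fell by 1.14 ± 0.34, and Notch1 stayed under 2-fold (-0.85 ± 0.22). Inhba, the activin beta A subunit, measured 1.30, 0.85, 3.14, 6.74 and 0.68 in metastases replicates 1 to 5 and -1.90, -1.30 and 0.81 at the lowest, median and highest carcinoma. Metastases replicate 4 was far above the rest, and the rise was 3.56 ± 0.86 (adjusted p = 0.0065).

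In the list of epithelial-mesenchymal transition genes, 4 of 23 rose and 1 fell, with a median change of 0.01. These shares, 17.4% and 4.35%, stand beside 4.73% and 5.34% of all genes. Of these genes, 5 rose and 3 fell without carcinoma replicate 6, 6 rose and 3 fell without metastases replicate 5, and 2 rose without metastases replicate 1 or 3. Zeb2, a repressor of E-cadherin that macrophages also express, measured 2.05, -1.67, 2.58, 3.88 and -0.33 in metastases replicates 1 to 5, against -3.70 to -2.20 in carcinoma replicates 1 to 5 and 1.88 in replicate 6, and rose by 3.38 ± 0.92. Vim, the mesenchymal and leukocyte intermediate filament vimentin, rose by 2.03 ± 0.71 (adjusted p = 0.0468), again with carcinoma replicate 6 (-2.37) high. Snai1, another repressor of E-cadherin, moved the other way, at -1.12, -1.26, -2.47, -2.36 and -1.79 in metastases replicates 1 to 5 and -1.16, 0.32 and 1.39 at the lowest, median and highest carcinoma, a fall of 1.99 ± 0.43 (adjusted p = 0.00322). Tjp1, the tight junction protein ZO-1, rose by 1.69 ± 0.51. Of 24 immediate early genes 4 rose and 4 fell without carcinoma replicate 6, and 1 to 2 rose and 2 to 4 fell without any other single sample. With all samples 1 rose, Fosl2 (1.47 ± 0.42), and 3 fell (4.17% and 12.5%, beside 4.73% and 5.34% of all genes). Among the 3, Jund, of the AP-1 complex, fell by 3.0 ± 0.65 (adjusted p = 0.00316).

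Of 16 genes of Il6 family signaling 4 were higher (25%, against 4.73% of all genes), Il6 among them, and none lower (median change 0.30). The count was 2 without metastases replicate 1, 3 or 4 or carcinoma replicate 1, 3 or 5, and 1 gene fell without metastases replicate 4 or 5 or carcinoma replicate 4. Of 32 DNA repair genes 2 were higher and 3 lower (9.38%, against 5.34% of all genes), with 3 higher without metastases replicate 4 or 5 and 2 lower without metastases replicate 4. Of 25 TGF-beta and BMP pathway genes 1 was higher and 1 lower (4% each, beside 4.73% and 5.34% of all genes). Without carcinoma replicate 6 or metastases replicate 5, 2 of these rose, without metastases replicate 5 2 fell, and none fell without carcinoma replicate 1, 2 or 3 or metastases replicate 3 or 4. With all samples none of 13 Erbb receptor and ligand genes, 10 erythroid and platelet genes, 10 mast cell, basophil and eosinophil genes or 8 adipocyte genes was called. In the fit without carcinoma replicate 6, 1 Erbb gene was higher and 1 lower, 1 erythroid and platelet gene was higher and 1 adipocyte gene lower. Of the Erbb genes, 1 was lower without metastases replicate 2 and 1 higher without metastases replicate 5.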

How the data were processed

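RNA from sorted cells was amplified in 2 rounds per the labels, labelled with Cy5 and hybridized with a Cy3-labelled universal mouse reference RNA on Agilent arrays (mm7 probe positions). The direction was the same on all arrays and dyes were not swapped. The deposited scanner files hold spot intensity per channel, read by the authors with Agilent Feature Extraction 10.7. A table deposited by the authors holds log2 ratios after normexp, loess and quantile normalization with limma, and was used as an alternative.

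From the scanner intensities, ratios were computed with limma 3.58.1 (R 4.3.3) by normexp background correction (offset 50), loess within arrays (control spots weighted 0) and quantile normalization between the 22 progression arrays. Replicate spots were averaged per probe, and each gene was represented by its brightest probe on average. A model of 4 groups was fitted with lmFit and eBayes, with metastases minus carcinoma as the contrast, p-values adjusted by Benjamini-Hochberg over 28786 genes, and genes called where the adjusted p was under 0.05 and the absolute log2 change 1 or more. The steps were tested on simulated data. Precision is limited by the number of arrays.

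Named genes were the 12 largest rises and falls among called genes with a reference symbol, separated groups and signal well above background without saturation on all 11 arrays, the first 3 genes and up to 4 called members of each of 42 lists, and genes named by the study, with other genes added after values were seen. The members and lists were chosen with earlier results of these data known. Alternatives covered background, scaling, probes, slides, replicates and thresholds. Some genes are not reported here. Arrays of the chemotherapy experiment were not used here.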

Additional observations from a re-analysis of the deposited data

Results flagged for a closer look

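Single samples that lay far from the rest of their group, by Dixon's gap test, were sought in 422 groups of values of the named genes and lists, of which chance would give about 1 in 20. Carcinoma replicate 6 accounted for 55 of the 74 such values, metastases replicate 4 for 9 and metastases replicate 5 for 6. All values are log2 ratios to the reference RNA.

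Carcinoma replicate 6 lay above the other carcinomas in mean level over the lists of macrophages (4.47), neutrophils (3.46), mast cells, basophils and eosinophils (1.72), MHC class II (3.92), chemokines and cytokines (3.39) and cathepsins and lysosome (1.96). Carcinoma replicate 6 lay below the other carcinomas in mean level over the lists of luminal mammary epithelium (1.8), cholesterol and fatty acid synthesis (-1.05) and histone and arginine methyltransferases (-0.51). Carcinoma replicate 6 lay above the other carcinomas in Chil4 (1.68), Siglecf (1.40), Csf1r (4.02), Adgre1 (3.39), Cd68 (2.74), Mpeg1 (3.27), Ctss (7.77), Lyz2 (6.76), Ccr7 (2.82), Cxcl3 (5.46), Ccl9 (4.55), Il1a (3.97) and Cxcl13 (2.22). It lay above them also in Ccl2 (4.60), Ctsk (2.47), Mmp13 (2.96), Mmp12 (2.09), H2-Aa (5.93), H2-Ab1 (7.47), H2-Eb1 (4.90), Cd74 (3.37), Ifit2 (-0.66), Serpinb2 (3.29), Pcna (0.23), Pmaip1 (2.28) and Hk2 (1.62). It lay above them also in Hspa5 (-0.53), Eed (-0.81), Xiap (0.50), Ctnnb1 (1.48), Zeb2 (1.88), Mrc1 (4.86) and Adam17 (2.21). Carcinoma replicate 6 lay below the other carcinomas in Xcr1 (0.70), Rps27 (-0.76), Ndufb10 (-0.075), Ndufb2 (1.35), Spint2 (1.99), Ehf (1.11), Krt14 (2.45), Srebf1 (-1.40), Hdac10 (-1.45), Smad1 (-2.80), Smad5 (-0.95), Lrp5 (-1.06) and Jund (0.83).

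Metastases replicate 4 lay below the other metastases in mean level over the lists of basal and myoepithelial (-0.31) and cholesterol and fatty acid synthesis (-1.51). Metastases replicate 4 lay above the other metastases in Zbtb46 (0.49) and Notch2 (2.53). Metastases replicate 4 lay below the other metastases in Krt8 (-1.49), Krt18 (-3.59), Spint2 (0.017), Krt14 (1.52) and Suv39h2 (-0.64). Metastases replicate 5 lay above the other metastases in Scgb1a1 (4.62), Cd3d (3.5), Ndufa2 (0.20) and Sirt1 (1.97). Metastases replicate 5 lay below the other metastases in Hspa5 (-1.98) and Hsp90b1 (-2.69). Metastases replicate 2 lay below the other metastases in Gbp3 (3.21). Carcinoma replicate 1 lay above the other carcinomas in Marco (1.35) and Sftpb (0.74). Carcinoma replicate 5 lay above the other carcinomas in Stat2 (-1.5).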

How the results depend on the processing

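Of 2900 genes called, leaving out 1 sample at a time gave 2361 to 3873, with 1127 to 1840 higher and 1176 to 2033 lower in metastases, and 300 to 798 at 4-fold or more against 434. The lowest counts came without metastases replicate 4, except 1127 higher without metastases replicate 3, and the highest without carcinoma replicate 6, while without metastases replicate 5 the 4-fold count was 670. Without both carcinoma replicate 6 and metastases replicate 5, a choice made after seeing the data, 4530 genes were called, 2125 higher and 2405 lower, and 1111 at 4-fold or more. At an adjusted p below 0.01 the counts were 1858 called and 817 higher. The scanner software's processed signals gave 970 at 4-fold or more. Sirt1 turned from -1.56 to 0.15 (limma adjusted p = 0.742) with the mean of a gene's probes, since its second probe rose by 1.87. Between metastases and carcinomas of the same replicate number, deviations from the group means correlated with mixed signs (r = 0.09, 0.27, -0.24, -0.35 and 0.32). Pairs with different numbers were not compared, so these values do not settle whether the numbers pair samples. The replicate block gave 3465 calls. Of the macrophage list, 0 to 7 genes were called across processing settings and 3 to 19 across samples left out. Across processing settings 2 to 11 chemokine and cytokine genes, 1 to 6 MHC class II genes and 9 to 19 interferon response genes were higher. A fit of only metastases and carcinoma gave 2823 calls, 369 of them at 4-fold or more, and a t-test gave 2582 and 330. Of 1310 called genes with several probes, 335 had another probe called the same way and 489 another of opposite sign. For 994 of them another probe was well above background on all 11 arrays. Among these, 291 had such a probe called the same way and 323 had one of opposite sign. The mean of a gene's probes gave 2118 calls, 304 at 4-fold or more, and kept 69.1% of the genes called here. Probes near background limit what low genes can show.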
